A study of Mus musculus with 12 samples.

Results

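The COUP-TF family of orphan nuclear receptors has 3 genes in the mouse, *Nr2f1* (COUP-TFI), *Nr2f2* (COUP-TFII) and *Nr2f6* (EAR2), and all 3 were present among the 24480 genes of the count tables. They were selected by symbol and not by their values, but with earlier results of these data known. In the dorsal lateral geniculate nucleus (dLGN) at birth, deletion of *Nr2f1* lowered its own transcript to 33.6% of the control level, whereas no increase of *Nr2f2* or *Nr2f6* passed the test. In *Sox2* mutants *Nr2f2* was 160% of control and passed the test. In *Nr2f1* mutants it was 125% of control, and a difference between the mutants was not shown (edgeR interaction FDR 0.30). The question addressed here is whether the remaining family members change when 1 of them is deleted.

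COUP-TF proteins bind DNA as dimers at repeats of the nuclear receptor core motif, mostly as repressors, and form heterodimers with retinoid X receptors. *Nr2f1* is known for patterning cortical areas and for guiding the development of the visual pathway. *Nr2f2* is known for specifying venous endothelium and classes of GABAergic interneurons, and *Nr2f6* for the development of the locus coeruleus and for restraint of T cells.

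The dLGN, the thalamic nucleus that relays retinal input to the visual cortex, was dissected at postnatal day 0 (P0) from brain sections, and poly(A) RNA was sequenced in 12 libraries, each from 3 pooled animals of the same genotype. *Sox2* mutants were *Sox2* flox/flox animals carrying Ror-alphaCre, and *Nr2f1* mutants were *Nr2f1* flox/flox animals carrying the same Cre. Controls were littermates of each line, flox/flox or flox/+, without Cre, so that all groups carried floxed alleles and only the mutants carried Cre. Each of the 4 groups had 3 libraries. They are named here by the suffix of their column, as controls 1, 2 and 3 and mutants 1, 3 and 4 of the *Sox2* line, and controls B, D and E and mutants A, B and C of the *Nr2f1* line. The Cre is expressed from the *Rora* locus in postmitotic sensory thalamic cells, and the dissected pieces also hold other cells, such as vascular cells and glia. Which part of *Nr2f1* is floxed is not given in the sources used here, and a count per gene cannot separate a truncated transcript from an intact one. Total counts lay between 39293465 and 50095344. Thalamic glutamatergic markers were present in every library, with 0 of 10 at 0, and their summed level was 2068 to 2657 CPM (counts scaled to library size) in *Sox2* line controls and 2499 to 2789 CPM in *Nr2f1* line controls.

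The 3 genes are close paralogs, and the resemblance of their transcripts bears on whether reads could be assigned to the right gene. All lie on the minus strand. In RefSeq coordinates on GRCm38, *Nr2f1* spans chr13:78188971-78198873, *Nr2f2* spans chr7:70351946-70366746 and *Nr2f6* spans chr8:71374118-71381967. The stretch of 120 coding bases shown here, from the part that encodes the zinc-finger DNA-binding domain in GENCODE M21, is shown because, of 382 windows of this length in *Nr2f1*, it had the fewest differences, 35 summed over both paralogs against a median of 54. Capitals mark bases that differ from *Nr2f1*. The *Nr2f1* stretch lies in exon 1 at chr13:78198208-78198327 and that of *Nr2f2* in exon 1 at chr7:70359976-70360095. That of *Nr2f6* is split between exon 1, at chr8:71380991-71381103, and exon 2, at chr8:71378477-71378483.
Nr2f1: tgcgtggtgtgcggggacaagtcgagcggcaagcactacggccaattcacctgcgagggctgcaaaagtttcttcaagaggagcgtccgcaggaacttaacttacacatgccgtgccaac
Nr2f2: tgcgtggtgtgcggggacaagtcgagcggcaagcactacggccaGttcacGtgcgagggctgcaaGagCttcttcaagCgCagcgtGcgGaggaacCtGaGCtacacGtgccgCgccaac
Nr2f6: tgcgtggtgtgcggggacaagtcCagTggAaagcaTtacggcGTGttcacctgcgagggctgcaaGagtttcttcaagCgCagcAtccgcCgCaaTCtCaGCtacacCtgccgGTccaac

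*Nr2f2* differed from *Nr2f1* at 14 of these 120 bases and *Nr2f6* at 21. Over the whole coding sequence, *Nr2f1* and *Nr2f2* were 79.7% identical, *Nr2f1* and *Nr2f6* 65.8%, and *Nr2f2* and *Nr2f6* 64.7%. The longest run of identical bases between the full transcripts, untranslated parts included, was 59 between *Nr2f1* and *Nr2f2* and 23 in both pairs with *Nr2f6*, and 0 stretches of 75 bases, the length of 1 read, were shared between any annotated transcripts of a pair. The deposited expected counts give reads that match several genes as fractions, and those of *Nr2f2* and *Nr2f6* were whole numbers in 12 of 12 libraries. *Nr2f1* had a value that was not whole in 2 libraries, mutant 3 of the *Sox2* line and mutant B of the *Nr2f1* line, and there its value and that of the overlapping antisense gene *A830082K12Rik* added up to whole numbers, 14071 and 7558.

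*Nr2f1*, the deleted gene of the *Nr2f1* line, had a level of 308, 345 and 344 CPM in controls 1, 2 and 3 of the *Sox2* line and 311, 370 and 380 CPM in controls B, D and E of the *Nr2f1* line. CPM were scaled by the trimmed mean of M values (TMM). In *Nr2f1* mutants A, B and C it was 105, 151 and 101 CPM. All *Nr2f1* mutant libraries lay far below all controls, with mutant B the highest of them. *Nr2f1* was downregulated from 354 ± 37.5 to 119 ± 27.5 CPM (SD, n = 3 each), a change of −1.57 on the log2 scale (SE 0.14, 95% interval −1.89 to −1.25, edgeR quasi-likelihood FDR 0.00035). By p-value it was the gene ranked 44 of 15600 tested in that line. The exact permutation test of the 3 against 3 libraries gave a two-sided p of 0.1, the smallest this design allows. The measurement matched the label of the mutants, with 33.6% of the control level remaining. In bulk tissue, fewer cells of a type and less RNA per cell cannot be told apart.

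In the *Sox2* line the deleted gene, *Sox2*, was 361, 363 and 382 CPM in controls 1, 2 and 3 and 116, 150 and 152 CPM in mutants 1, 3 and 4, 37.8% of control and with no overlap (log2 fold change −1.40, SE 0.10, edgeR FDR 4.8e-05). *Rora*, the gene that carries the Cre, fell to 25.6% of control in *Sox2* mutants (log2 fold change −1.96, edgeR FDR 2.1e-05) and did not pass in *Nr2f1* mutants (84.0%, edgeR FDR 0.20). In *Sox2* mutants 1, 3 and 4, *Nr2f1* was 227, 313 and 221 CPM. Mutants 1 and 4 lay below all controls, and mutant 3 lay within their range. The mean was 254 ± 51.2 CPM against 332 ± 21.3 CPM in controls (SD, n = 3 each), 76.3% of control, with a log2 fold change of −0.39 (SE 0.13, 95% interval −0.67 to −0.11), and this did not pass the threshold (edgeR FDR 0.056, exact permutation p = 0.2, two-sided). This value rests on mutant 3: without it the log2 fold change was −0.57 and passed (edgeR FDR 0.0034). The fall of *Nr2f1* was larger in *Nr2f1* than in *Sox2* mutants, with a difference of log2 fold changes of −1.19 (SE 0.22, edgeR interaction FDR 0.0074). At that threshold 1.44% of the 15989 genes tested differed between the lines. The difference lay between −1.41 and −1.02 in all alternatives, but its FDR rose to between 0.0102 and 0.030 when any of 9 libraries was left out, namely controls 1, 2, 3, D and E and mutants 3, 4, A and C.

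**Figure D1:**
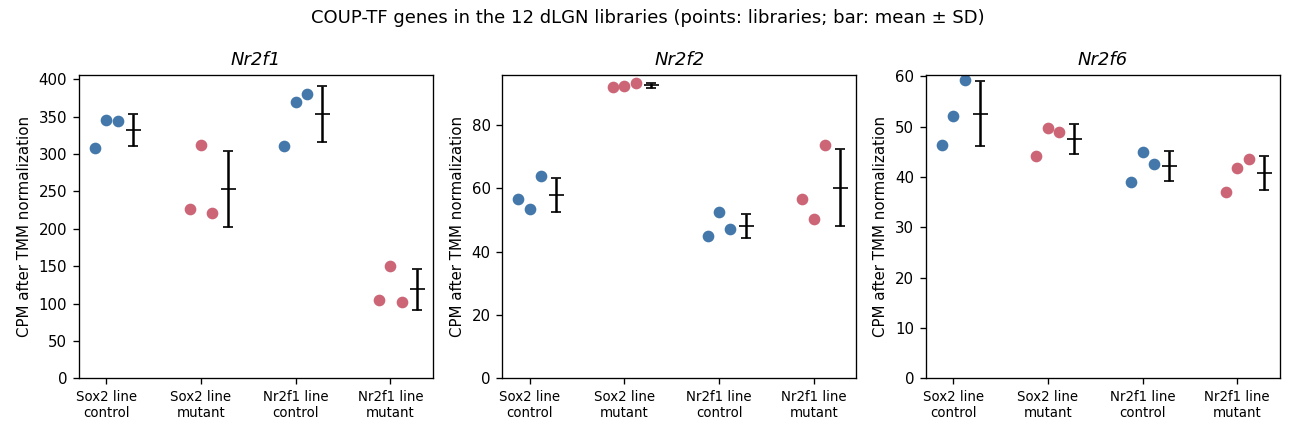
Level of each family member in CPM after TMM normalization (y axis, from 0, different scale in each panel) in the 4 groups (x axis); points are libraries and bars are mean ± SD over 3 libraries. *Nr2f1* mutants had 101 to 151 CPM of *Nr2f1* against 311 to 380 CPM in their controls, *Sox2* mutants had 92.1 to 93.5 CPM of *Nr2f2* against 53.4 to 63.9 CPM, and *Nr2f6* groups overlapped in both lines.

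*Nr2f2* was the family member that rose, and it rose in *Sox2* mutants. It was 56.6, 53.4 and 63.9 CPM in controls 1, 2 and 3 and 92.1, 92.4 and 93.5 CPM in mutants 1, 3 and 4. The mutants were nearly equal to each other, and every one lay above every control. *Nr2f2* was upregulated from 58.0 ± 5.38 to 92.7 ± 0.74 CPM (SD, n = 3 each), a change of 0.68 on the log2 scale (SE 0.08, 95% interval 0.50 to 0.85, edgeR FDR 0.00043, exact permutation p = 0.1, two-sided), ranked 224 by p-value. In this line 8.08% of the 15602 genes tested passed FDR 0.01 in either direction, and the libraries of mutants and controls did not overlap for 37.9%. The log2 fold change of *Nr2f2* lay between 0.62 and 0.76 and passed in 14 of 14 alternatives, the omission of each library included, with FDR up to 0.0039.

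In *Nr2f1* mutants, *Nr2f2* was 56.8, 50.3 and 73.7 CPM in mutants A, B and C, against 44.9, 52.5 and 47.1 CPM in controls B, D and E. Mutants A and C lay above all controls and mutant B within their range. The mean was 60.3 ± 12.1 CPM against 48.2 ± 3.88 CPM in controls (SD, n = 3 each), 125% of control, and the log2 fold change of 0.32 (SE 0.13, 95% interval 0.04 to 0.61) did not pass (edgeR FDR 0.15, exact permutation p = 0.2, two-sided). Of the family, *Nr2f1* alone passed FDR 0.01 in this line, where 2.54% of the 15600 genes tested passed in either direction and 28.6% did not overlap. The log2 fold change of *Nr2f2* ranged from 0.15 to 0.44 over 14 alternatives, with FDR from 0.030 to 0.44, and 0 of them passed 0.01. The change in *Nr2f1* mutants minus that in *Sox2* mutants was −0.36 (SE 0.16, 95% interval −0.71 to −0.01, edgeR interaction FDR 0.30), so that a difference between the mutants was not shown for *Nr2f2*.

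*Nr2f6*, the most distant member in sequence, did not pass the test in either mutant. In the *Sox2* line it was 46.3, 52.2 and 59.2 CPM in controls 1, 2 and 3 and 44.3, 49.8 and 48.9 CPM in mutants 1, 3 and 4. In the *Nr2f1* line it was 38.99, 44.9 and 42.6 CPM in controls B, D and E and 37.1, 41.7 and 43.6 CPM in mutants A, B and C. Mutants and controls overlapped in both lines. The log2 fold change was −0.14 (95% interval −0.36 to 0.08, edgeR FDR 0.33) in *Sox2* mutants and −0.05 (95% interval −0.23 to 0.13, edgeR FDR 0.77) in *Nr2f1* mutants, and the sign of the latter turned in 3 of 14 alternatives, without control D or mutant A and with sex-linked expression as a covariate. The upper ends of these 95% intervals, 0.08 and 0.13 on the log2 scale, rest on 3 against 3 libraries and are not a maximum. The change in *Nr2f1* mutants minus that in *Sox2* mutants was 0.09 (SE 0.14, edgeR interaction FDR 0.83).

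**Figure D2:**
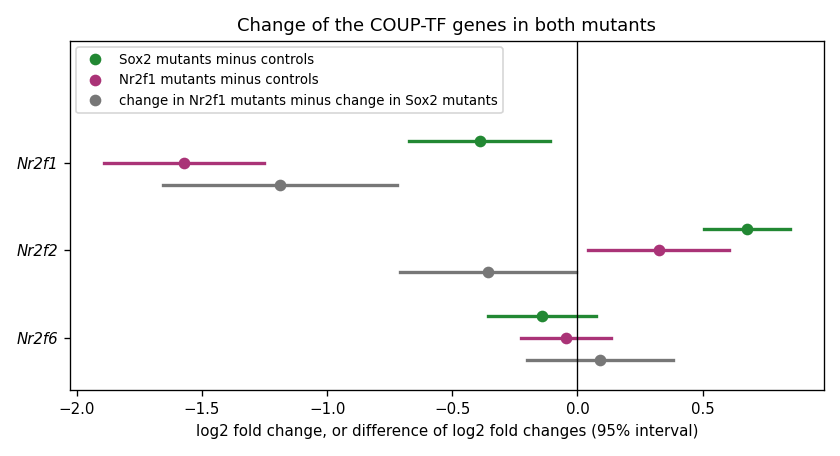
Log2 fold change of each family member in *Sox2* mutants and in *Nr2f1* mutants against the controls of the same line, and the difference between these changes (x axis, log2), with points for estimates and lines for 95% intervals. Only the intervals of *Nr2f6* include 0 in all 3 comparisons, while those of *Nr2f1* lie below 0 and that of *Nr2f2* in *Sox2* mutants runs from 0.50 to 0.85.

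To compare levels between the genes, CPM were divided by the length of the longest transcript annotated in GENCODE M21, which is 3207 bases for *Nr2f1*, 4222 for *Nr2f2* and 2218 for *Nr2f6*. In *Nr2f1* line controls the per-length level was 110 ± 11.7 CPM per kb for *Nr2f1*, 19.0 ± 1.34 for *Nr2f6* and 11.4 ± 0.92 for *Nr2f2* (SD, n = 3). *Nr2f1* thus made up 78.3% of the summed family level in these controls and 73.5% in *Sox2* line controls, where the levels were 104 ± 6.65, 23.7 ± 2.92 and 13.7 ± 1.27 CPM per kb in the same order. The order of *Nr2f6* and *Nr2f2* depended on the length used and turned with the coding length, at which *Nr2f2* made up 13.2% and *Nr2f6* 12.6% in *Sox2* line controls, whereas *Nr2f1* stayed first in every group.

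In *Nr2f1* mutants *Nr2f1* lost 73.2 CPM per kb, *Nr2f2* differed by 2.87 CPM per kb and *Nr2f6* by −0.59 CPM per kb from the control means. The difference of *Nr2f2*, which did not pass the test, was 3.92% of the size of the loss of *Nr2f1*, and 2.99% to 5.24% with other lengths or without TMM. The summed per-length level of the family fell from 141 ± 13.5 to 69.8 ± 7.46 CPM per kb, 49.6% of control. *Nr2f1* was still the largest share of what remained, with 52.8%, followed by *Nr2f6* with 26.5% and *Nr2f2* with 20.7%.

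In *Sox2* mutants the summed per-length level was 122 ± 16.7 CPM per kb against 141 ± 9.74 CPM per kb in controls, 86.9% of control. *Nr2f2* gained 8.21 CPM per kb and *Nr2f1* differed by −24.5 CPM per kb, without passing the test. The share of *Nr2f2* in the summed level was 9.75% in controls and 18.1% in mutants, close to that of *Nr2f6*, 17.7%. No test was made of the sums, since they are set by the members' own values.

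**Figure D3:**
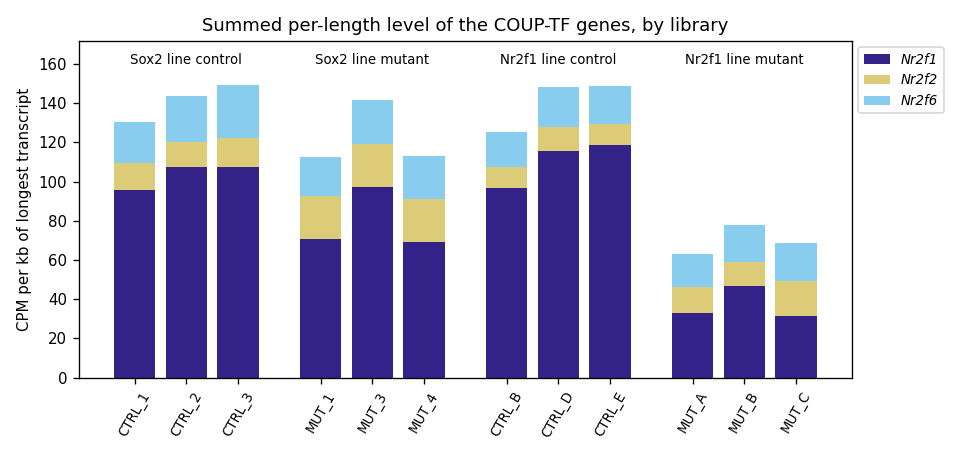
Stacked per-length level of the 3 genes in CPM per kb of the longest transcript (y axis, from 0) in each of the 12 libraries (x axis), grouped by line and genotype. *Nr2f1* forms the largest segment in every library, and the *Nr2f1* mutants have the lowest bars, with a mean sum of 69.8 CPM per kb against 141 in their controls.

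*Nr2f2* is expressed by venous endothelium and by interneurons, so the markers of these cells are set beside it. In *Nr2f1* mutants A, B and C the summed level of 5 venous endothelial markers was 252, 136 and 271 CPM, against 118 to 161 CPM in controls. That of 9 GABAergic markers was 158, 102 and 210 CPM, against 106 to 115 CPM in controls, and that of 5 markers of midbrain-derived thalamic interneurons was 113, 83.5 and 136 CPM, against 74.7 to 87.4 CPM. In all these lists mutant C was highest, mutant A next and mutant B within or below the controls, the order in which *Nr2f2* stood in the same libraries. Endothelial markers (432, 327 and 463 CPM, controls 274 to 332) and meningeal fibroblast markers (1897, 1007 and 2327 CPM, controls 694 to 1055) had the same order, as had arterial endothelial markers (80.4, 68.2 and 89.9 CPM, controls 60.5 to 71.7), so that the order was not particular to venous markers. Pericyte and mural markers were 399, 329 and 399 CPM, against 292 to 345 CPM in controls. Over the lists other than the arterial one, 0 of 40 genes passed FDR 0.01 in edgeR in *Nr2f1* mutants, 25 had an unadjusted p below 0.05 and 7 passed with DESeq2, and none was at 0 in all libraries. Over all genes tested in this line, 2.54% passed in edgeR in either direction, 24.6% had an unadjusted p below 0.05 and 7.57% passed with DESeq2. For 28.6% of single genes the mutants and controls did not overlap. For 5 other lists all mutants, B included, stood above all controls, and of these the microglial list alone had the order C, A and B. Astrocyte and radial glia markers were 1511, 1599 and 1717 CPM (controls 1376 to 1418), oligodendrocyte lineage markers 465, 494 and 488 CPM (controls 430 to 448), and pallial and hippocampal markers 169, 143 and 133 CPM (controls 80.4 to 91.5). Of the 8 pallial and hippocampal genes *Prox1* alone passed in edgeR, with a rise from 57.4 to 123 CPM. The median log2 fold change of that list was −0.15. Microglial markers were 93.0, 79.7 and 108 CPM (controls 64.8 to 73.8) and habenular markers 8.48, 6.999 and 7.85 CPM (controls 4.20 to 4.85). Thalamic glutamatergic markers were 2584, 2686 and 2278 CPM (controls 2499 to 2789), with mutant C lowest. Of these 10 genes 1 was downregulated, *Lef1*. In either direction 8 had an unadjusted p below 0.05 in edgeR and 5 passed with DESeq2. The pools also differed in sex-linked expression. Male-specific genes summed to 0, 32.5 and 52.1 CPM in mutants A, B and C and 43.6 to 97.4 CPM in controls, and the female-specific transcript was 506 to 1150 CPM in mutants and 0.28 to 484 CPM in controls. The part of these cells in the value of *Nr2f2* was not tested.

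In the *Sox2* line 4 of the vascular, fibroblast, GABAergic and interneuron sums were higher in every mutant than in every control. Venous endothelial markers were 122 to 175 CPM in controls and 207 to 267 CPM in mutants, with 2 of 5 upregulated, arterial endothelial markers 61.5 to 88.2 CPM and 98.5 to 114 CPM, with 1 of 7 upregulated, GABAergic markers were 76.6 to 124 CPM and 142 to 198 CPM, with 0 of 9 passing in edgeR (8 at an unadjusted p below 0.05, 5 with DESeq2), and interneuron markers of midbrain origin were 72.8 to 85.0 CPM and 104 to 111 CPM, with 1 of 5 upregulated, *Otx2*. Endothelial markers were 292 to 444 CPM in controls and 401 to 514 CPM in mutants, with 0 of 7 passing (5 at an unadjusted p below 0.05, 0 with DESeq2). Over all genes tested in this line, 8.08% passed in edgeR in either direction, 35.0% had an unadjusted p below 0.05 and 16.1% passed with DESeq2. For 37.9% of single genes the mutants and controls did not overlap. Pericyte and mural markers were 282 to 413 CPM and 398 to 454 CPM, and meningeal fibroblast markers 908 to 1825 CPM and 1394 to 3167 CPM. Mutants and controls overlapped for these last 3 lists, whereas for *Nr2f2* they did not. Within the mutants the order differed between lists: mutant 3 was highest for venous endothelial markers, mutant 1 for GABAergic markers and mutant 4 for midbrain-derived interneuron markers, while *Nr2f2* hardly varied. Astrocyte and radial glia markers (5 of 7 upregulated, 1638 to 2012 CPM in controls and 2534 to 2932 CPM in mutants) and microglial markers (5 of 6 upregulated, 84.6 to 96.8 CPM and 181 to 204 CPM) also rose. Oligodendrocyte lineage markers (502 to 618 CPM and 627 to 721 CPM, 1 of 6 upregulated) did not overlap either. The same held for habenular markers (3.48 to 6.34 CPM and 6.50 to 12.3 CPM, 0 of 5 passing). Pallial and hippocampal markers overlapped (65.3 to 99.5 CPM and 66.1 to 166 CPM), but this sum joins opposite changes. *Prox1* fell from 50.8 to 28.3 CPM and *Slc17a7* rose from 7.58 to 18.0 CPM, and both passed in edgeR. The median log2 fold change of these 8 genes was 1.20, with 6 at an unadjusted p below 0.05 in either direction. Thalamic glutamatergic markers summed to 2068 to 2657 CPM in controls and 1910 to 1958 CPM in mutants, without overlap. Of these markers, 5 of 10 fell while 2 rose. The part of these shifts in the rise of *Nr2f2* was not tested.

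**Figure D4:**
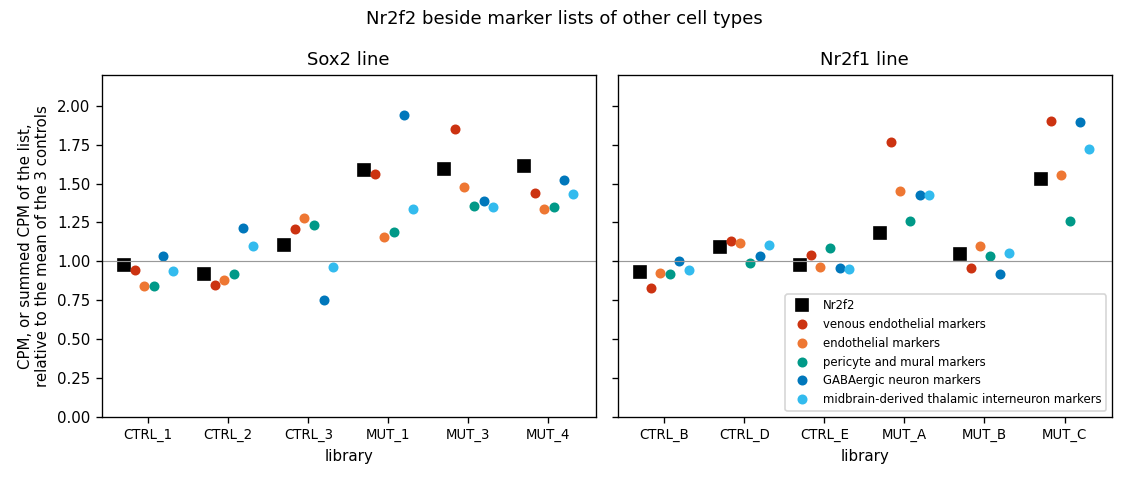
*Nr2f2* (black squares) and summed marker lists (colored circles) in each library (x axis), as CPM relative to the mean of the 3 controls of the same line (y axis, from 0; the gray line marks 1). In the *Nr2f1* line mutants A and C stand above mutant B for *Nr2f2* and for each list, and in the *Sox2* line *Nr2f2* is nearly equal in the 3 mutants while the lists vary.

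The genes that overlap or flank each member were followed in the same fits. The protein-coding gene *Fam172a* lies 22730 bases from *Nr2f1*, at chr13:77708677-78166240. It was 39.9, 40.9 and 43.1 CPM in controls B, D and E and 22.0, 24.6 and 25.1 CPM in *Nr2f1* mutants A, B and C. The mutants and controls were well apart. *Fam172a* was downregulated to 57.9% of control, from 41.3 ± 1.59 to 23.9 ± 1.66 CPM (SD, n = 3 each), a change of −0.79 on the log2 scale (SE 0.07, edgeR FDR 0.00035, exact permutation p = 0.1, two-sided), and it passed in 14 of 14 alternatives. In *Sox2* mutants it was 37.6, 40.3 and 39.7 CPM against 43.8, 41.8 and 41.7 CPM in controls, and the change of −0.12 on the log2 scale did not pass (edgeR FDR 0.26), and the changes in the mutants differed by −0.68 (SE 0.09, edgeR interaction FDR 0.00081). What accounts for the fall of *Fam172a* was not tested.

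The lncRNA *A830082K12Rik*, which overlaps the 5′ end of *Nr2f1* on the opposite strand, was 12.8 ± 1.36 CPM in controls and 12.8 ± 1.27 CPM in *Nr2f1* mutants (SD, n = 3 each), with a log2 fold change of 0.00 (edgeR FDR 0.99) whose sign turned in 6 of 14 alternatives. Strand-specific counting is not stated, so that reads of the 2 genes within the overlap may not be separable. *Arrdc3*, the next gene on the other side at 2684510 bases, did not pass in either line. Of the genes beside *Nr2f2*, the overlapping lncRNA *B130024G19Rik* was 0.79 ± 0.15 CPM in controls and 0.98 ± 0.17 CPM in *Sox2* mutants and did not pass in either line. *Gm29683* did not pass either, and *4930441H08Rik* was at 0 in all libraries. Beside *Nr2f6*, *Ocel1* and *Ushbp1* did not pass in either line, except that without control 3 *Ushbp1* passed in *Sox2* mutants (log2 fold change 0.75 against 0.44 with all libraries, edgeR FDR 0.0037).

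**Figure D5:**
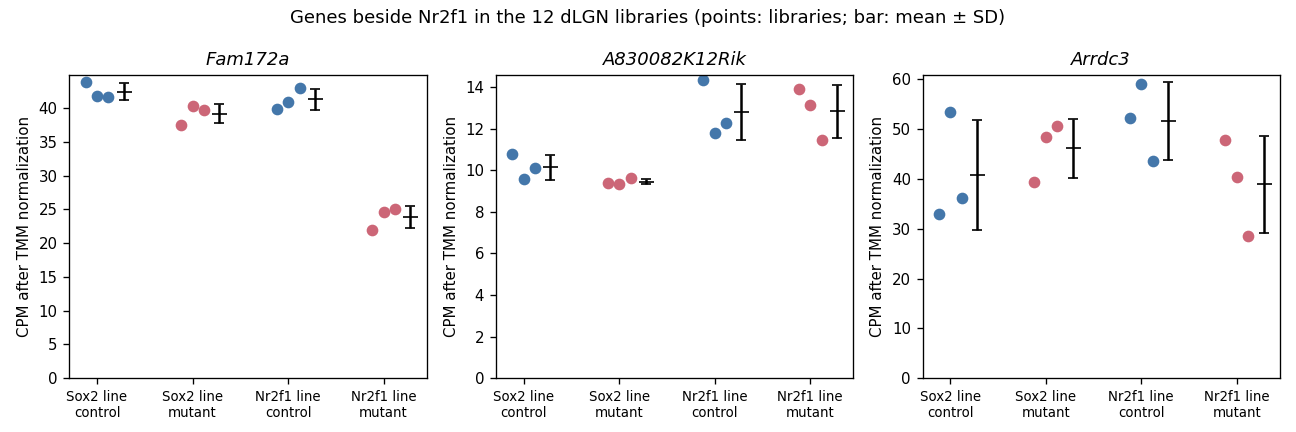
Level in CPM after TMM normalization (y axis, from 0, different scale in each panel) of the 3 genes that overlap or flank *Nr2f1*, in the 4 groups (x axis); points are libraries and bars are mean ± SD over 3 libraries. *Fam172a* is 22.0 to 25.1 CPM in *Nr2f1* mutants and 39.9 to 43.1 CPM in their controls, while the groups of *A830082K12Rik* and *Arrdc3* overlap in that line.

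COUP-TF proteins act with partners and co-regulators, of which 14 genes were tested. In *Sox2* mutants 2 of 14 were upregulated and 0 downregulated, beside 8.08% of all genes called in either direction, with a median log2 fold change of 0.04 against 0.00 over all genes tested. *Zfpm2* (FOG2), a zinc-finger co-repressor, was 13.5 to 16.8 CPM in controls and 26.9 to 29.8 CPM in mutants, a rise of 0.85 on the log2 scale (SE 0.10, edgeR FDR 0.0006). *Bcl11b* (CTIP2), a zinc-finger protein that binds COUP-TF proteins, rose by 1.09 on the log2 scale (SE 0.21, edgeR FDR 0.0065) and lost the call without control 1, 2 or 3 or mutant 4 (FDR from 0.0105 to 0.030). In *Nr2f1* mutants 0 of 14 passed in edgeR, with 6 at an unadjusted p below 0.05 and 1 passing with DESeq2, beside 24.6% and 7.57% of all genes. *Ncor1*, the most abundant of the list, had log2 fold changes of −0.08 and −0.07 in *Sox2* and *Nr2f1* mutants and did not pass.

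Of 9 other receptors of the NR2 class, 6 were expressed highly enough to be tested, and 1 was upregulated in each mutant, beside 8.08% of all genes called for *Sox2* and 2.54% for *Nr2f1* mutants. This was *Rxrg*, which encodes the retinoid X receptor gamma, a possible partner of COUP-TF proteins. *Rxrg* was 22.3, 21.6 and 24.1 CPM in controls and 30.3, 32.5 and 31.9 CPM in mutants of the *Sox2* line, a rise of 0.48 on the log2 scale (SE 0.08, edgeR FDR 0.0035). In the *Nr2f1* line it was 16.0, 16.8 and 15.9 CPM in controls and 24.1, 23.4 and 25.6 CPM in mutants, a rise of 0.58 on the log2 scale (SE 0.07, edgeR FDR 0.002). The mutants lay above the controls in both lines, and the changes differed by 0.10 between the lines (SE 0.10, edgeR interaction FDR 0.73). The call in *Sox2* mutants was lost without control 1, control 2, mutant 3 or mutant 4 (FDR 0.011 to 0.022), and that in *Nr2f1* mutants without control B, control E or mutant A (FDR 0.011 to 0.013) or with sex-linked expression as a covariate (FDR 0.018). *Nr2c2* (TR4), the most abundant of the list, did not pass in either line.

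COUP-TF proteins can also occupy repeat sites of retinoic acid, thyroid hormone, vitamin D and peroxisome proliferator-activated receptors. Of 9 genes of these receptors 8 were tested. In *Sox2* mutants 1 passed, beside 8.08% of all genes. This was *Pparg*, a low-expressed receptor known from fat cells and macrophages, which fell from 0.83 to 1.06 CPM in controls to 0.05 to 0.29 CPM in mutants (log2 fold change −2.30, SE 0.47, edgeR FDR 0.0087). This rests on 35 to 43 counts per control library and 2 to 13 per mutant library, and the call was lost on leaving out any 1 of the 6 libraries (FDR 0.015 to 0.032). In *Nr2f1* mutants *Pparg* did not pass (log2 fold change 0.77, edgeR FDR 0.16). There 0 of 8 passed with edgeR or DESeq2, with 4 at an unadjusted p below 0.05, beside 24.6% of all genes. Between the mutants the change of *Pparg* differed by 3.07 (SE 0.57, edgeR interaction FDR 0.0079). *Thra*, the thyroid hormone receptor alpha gene and the most abundant of the list, had log2 fold changes of 0.07 and −0.06 and did not pass.

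The last list held 13 genes that earlier work, mostly in forebrain or vasculature, places under COUP-TF control. In *Sox2* mutants 8 of 13 were upregulated, beside 8.08% of all genes in either direction, with a median log2 fold change of 0.62. They were *Nrp1* (0.56) and *Nrp2* (0.65), semaphorin and VEGF co-receptors, the transcription factor genes *Pax6* (0.62), *Otx2* (0.48), *Nkx2-1* (1.25) and *Bcl11b*, *Fabp7* (0.60), a fatty acid binding protein of radial glia, and *Angpt1* (0.92), a ligand of the vascular receptor TIE2. Without control 1, control 2 or mutant 4, 2 of 13 passed in each case, *Nrp1* and *Nrp2*. The change of *Nkx2-1* rests on 25 to 39 counts per control library and 68 to 76 per mutant library. Its call was lost whichever single library was left out (edgeR FDR 0.017 to 0.050). *Nrp2* is also a venous endothelial marker, *Otx2* an interneuron marker and *Fabp7* an astrocyte and radial glia marker in the lists above. The summed levels of these lists were higher in *Sox2* mutants, but the sums include these genes and are not separate from them. The part of cell composition in these calls was not tested.

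In *Nr2f1* mutants 1 of the 13 genes was upregulated, *Nrp1*, beside 2.54% of all genes called, and the median log2 fold change was 0.19 against 0.01 over all genes tested. *Nrp1* was 49.2, 47.5 and 46.5 CPM in controls B, D and E and 86.9, 70.8 and 85.4 CPM in mutants A, B and C, with no overlap (log2 fold change 0.76, SE 0.08, edgeR FDR 0.00067), and it passed in 14 of 14 alternatives in both lines. *Nrp2* was 58.2, 38.6 and 75.4 CPM in mutants A, B and C against 36.8 to 43.9 CPM in controls. Mutant B stood within the controls here too, and without it *Nrp2* passed (log2 fold change 0.75, edgeR FDR 0.0026), as did *Bcl11b* (0.75, edgeR FDR 0.0073), so that 3 of 13 passed. A difference between the mutants did not pass for any of the 8 genes (edgeR interaction FDR 0.066 to 0.88).

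The genes whose profiles over the 12 libraries were most like each member were found by the root mean square difference of log2 CPM, each relative to the controls of its own line, among 15396 genes. This is a description, and the libraries share their line and genotype. For *Nr2f1* they were *Stxbp6* (0.18), *Epha7* (0.20) and *Pex5l* (0.22), against a median of 0.86 over all genes. *Stxbp6* had log2 fold changes of −0.40 in *Sox2* and −1.62 in *Nr2f1* mutants, near those of *Nr2f1* itself. For *Nr2f2* they were *Maoa* (0.067), which encodes monoamine oxidase A, *Plxdc2* (0.076) and *Tmbim1* (0.080), against a median of 0.42. *Maoa* had log2 fold changes of 0.66 and 0.37 in the same order, against 0.68 and 0.32 for *Nr2f2*. For *Nr2f6* they were *Repin1* (0.056), *Atp13a1* (0.062) and *Usmg5* (0.063), against a median of 0.21, all of which varied little between libraries.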

How the data were processed

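The authors deposited 1 table of unnormalized expected counts for each line, with genes in rows. Per the methods, paired reads of 75 bases were aligned with STAR to the RefSeq mouse transcriptome and counted with RSEM, and the labels name mm10. Of the values 7.77% were not whole, and all were rounded. Columns were assigned to groups by name, and 0 columns were left out. Each line was tested alone in edgeR 4.0.16 (R 4.3.3, quasi-likelihood F-test, TMM, filterByExpr with at least 10 counts and a total of at least 15), at a Benjamini-Hochberg FDR below 0.01, the threshold of the study. Differences between the lines were tested as the interaction of line and genotype over 12 libraries. SE and 95% intervals follow from the F-test. Replicates are separate pools of animals, and none were duplicates.

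The 3 genes and all lists were chosen with earlier results of these data known. The text names the members, each list's called genes and its most abundant gene, overlapping or adjacent genes, and the 3 genes most like each member (offset 0.5 CPM on the log2 scale). Some genes of the lists are not reported here by name. In simulated data with log2 changes of 1.5 in 200 genes, 182 (91%) were recovered with 5 false calls in the *Sox2* line (15500 genes). In the *Nr2f1* line (15474 genes) 172 (86%) were recovered with 7 false calls. The share of false calls among all calls was above the FDR threshold in both lines. Smaller changes were not simulated. Whether changes such as 0.32 for *Nr2f2* in *Nr2f1* mutants or −0.39 for *Nr2f1* in *Sox2* mutants could be detected was therefore not tested. Alternatives were other filters, upper quartile scaling, DESeq2 1.42.0, a likelihood ratio test, 1 fit over all libraries, male-specific expression as a covariate, FDR 0.05, the omission of each library and other lengths. Coding length was added after the data were seen.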

Additional observations from a re-analysis of the deposited data

Results flagged for a closer look

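The test of the difference between the mutants passed for 3 of the genes named above, each given as the log2 fold change in *Nr2f1* mutants minus that in *Sox2* mutants. It was −1.19 for *Nr2f1*, the gene deleted in the *Nr2f1* line. It was 3.07 for *Pparg*, which has few counts. It was −0.68 for *Fam172a*, the neighbor of *Nr2f1*.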

How the results depend on the processing

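No paired analysis was possible because the numbers and letters in the column names are not the replicate numbers of the labels. The rise of *Nr2f2* in *Sox2* mutants and the fall of *Nr2f1* in *Nr2f1* mutants passed in 14 of 14 alternatives, and *Nr2f2* in *Nr2f1* mutants in 0. Genes called numbered 1261 in the *Sox2* and 396 in the *Nr2f1* line, but 2468 and 1112 with DESeq2, 2351 and 1089 with a likelihood ratio test, 3095 and 1154 at FDR 0.05, and 876 and 84 with male-specific expression as a covariate. In 1 fit over all libraries the *Sox2* line had 2075. Without 1 library they ranged from 494 to 2161 and from 133 to 868. Upper quartile scaling moved the median of all genes to 0.04 in *Sox2* mutants, with 749 of 1314 calls upregulated against 608 of 1261. The cause was not tested.

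Without 1 library, *Nr2f1* ranged from −0.57 to −0.30 in *Sox2* mutants, the difference between the lines from −1.41 to −1.02 for *Nr2f1* and from −0.0119 to 0.18 for *Nr2f6*, and *Nr2f6* in *Nr2f1* mutants from −0.10 to 0.0192. Signs also turned for *Nr2c2* in *Sox2* mutants (−0.0812 to 0.0157) and, in *Nr2f1* mutants, *A830082K12Rik* (−0.0573 to 0.0914), *Pax6* (−0.18 to 0.0468), *Nkx2-1* (−0.71 to 0.26) and *Zfpm2* (−0.0911 to 0.23). With male-specific expression as a covariate, *Nr2f6* was 0.043, *A830082K12Rik* −0.089 and *Pax6* 0.0745 in *Nr2f1* mutants. *Nr2c2* was 0.0126 with upper quartile scaling, and *A830082K12Rik* −0.0042 with DESeq2.

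In *Sox2* mutants the genes passing were 2 of the other NR2 receptors without a filter, and 2 of these and 2 of the repeat-site receptors with DESeq2, the likelihood ratio test, 1 fit over all libraries and FDR 0.05, and 0 repeat-site receptors with at least 10 counts in every library. With male-specific expression as a covariate they were 0 repeat-site receptors, 1 partner and 5 of the genes under COUP-TF control. Without 1 library they ranged from 0 to 2, 0 to 1, 1 to 3 and 2 to 6 for the NR2 receptors, repeat-site receptors, partners and controlled genes. In *Nr2f1* mutants 1 partner passed with either other filter, upper quartile scaling, DESeq2, the likelihood ratio test, 1 fit over all libraries and FDR 0.05. With the last 4 of these, 2 controlled genes passed, and with the likelihood ratio test and FDR 0.05 also 1 repeat-site receptor. With the covariate 0 NR2 receptors passed. Without 1 library these lists ranged from 0 to 2, 1 to 3, 0 to 1 and 0 to 1.

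With the shortest transcript and with the coding length, in this order, the summed level was 1218 and 354 CPM per kb in *Sox2* line controls, 1038 and 316 in *Sox2* mutants, 1216 and 355 in *Nr2f1* line controls, and 592 and 178 in *Nr2f1* mutants. The share of *Nr2f2* was then 7.50% and 13.2%, 14.2% and 23.8%, and 6.24% and 10.9% in the first 3 groups and 27.6% with the coding length in *Nr2f1* mutants. The share of *Nr2f6* was 18.3% and 12.6%, 19.7% and 13.0%, 14.8% and 10.2%, and 29.5% and 19.7% in the 4 groups.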
